A study of Homo sapiens with 4 samples.

Results

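The mitochondrially encoded genes comprised every row whose name starts with MT-, which gave 37 of 19577 gene rows and the same 37 in each plate. They were 13 protein-coding genes, 2 rRNA genes and 22 tRNA genes, all on chrM of GRCh38 in the GENCODE 29 annotation. The cells were MCF10A_H2B_GFP, a GFP-marked line of untransformed human mammary epithelium, seeded as a circular patch of 10000 cells on fibronectin and cultured for 6 days before live cells were sorted after trypsin. In the low-resolution experiment the patch was divided into 3 rings of 1000 to 1500 μm. In the high-resolution experiment it was divided into 2 outer bands of 250 μm each and the interior. In both, 2 photoactivatable dyes were applied in turn. The outer region was phototagged with 1 dye and the middle region with both, and the inner region was not phototagged. Each experiment had 2 replicates of 1 plate with 384 wells. No other treatment distinguishes the experiments in the labels, every cell comes from the same line, and wells were not assigned to regions here, so that a plate mixes its regions.

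The human mitochondrial chromosome is transcribed from both strands into long precursors, from which tRNAs are cut out between most of the mRNAs and rRNAs. The mRNAs code for core subunits of respiratory complexes I, III and IV and of the ATP synthase, complex V, whereas the remaining subunits are coded in the nucleus. The rRNAs and most mitochondrial mRNAs carry short poly(A) tails, the light-strand mRNA MT-ND6 is known to lack one, and mature tRNAs end in CCA. SORT-seq, the plate-based form of CEL-seq2 used here, primes on poly(A) and counts transcript ends by unique molecular identifiers (UMIs). Epithelial-to-mesenchymal transition (EMT) is the program in which epithelial cells lose cell-cell adhesion and gain migratory properties.

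The sequences of the tRNAs at either end of the count range are shown first, because the library method primes on poly(A). The longest run of A is in capitals, or the first such run where runs tie. Each marked run lies inside the tRNA and not at its 3′ end. They are transcript sequences of GENCODE 29, 5′ to 3′. MT-TI (chrM:4263-4331), MT-TK (chrM:8295-8364) and MT-TL1 (chrM:3230-3304) were the tRNAs with the most counts, and MT-TQ (chrM:4329-4400, minus strand), MT-TS1 (chrM:7446-7514, minus strand) and MT-TR (chrM:10405-10469) were among the 4 with the fewest.
MT-TI: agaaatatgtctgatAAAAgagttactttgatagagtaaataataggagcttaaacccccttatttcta
MT-TK: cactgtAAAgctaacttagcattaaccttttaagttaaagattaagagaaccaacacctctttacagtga
MT-TL1: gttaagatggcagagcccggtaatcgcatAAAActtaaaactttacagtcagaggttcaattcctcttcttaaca
MT-TQ: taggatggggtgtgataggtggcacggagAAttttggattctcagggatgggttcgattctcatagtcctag
MT-TS1: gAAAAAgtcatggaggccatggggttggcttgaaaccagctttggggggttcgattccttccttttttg
MT-TR: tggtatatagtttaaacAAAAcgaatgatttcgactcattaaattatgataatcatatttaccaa

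The last 30 bases of the annotated gene are shown for 6 mRNAs because these genes end in different ways. They need not be the transcript end that a 3′ method reads, which was not determined here. MT-CO2, for one, ends at base 8269, and the next gene, MT-TK, starts at 8295. The capitals mark the stop codon or the incomplete codon that ends the annotated gene. Of the 13 mRNAs, 6 ended in T or TA, which polyadenylation is known to complete to a stop codon, 5 in TAA or TAG and 2 in AGA or AGG.
MT-CO2: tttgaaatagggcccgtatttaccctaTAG
MT-ATP6: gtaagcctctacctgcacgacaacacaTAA
MT-ND4: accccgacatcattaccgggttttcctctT
MT-ND1: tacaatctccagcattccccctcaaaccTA
MT-CO1: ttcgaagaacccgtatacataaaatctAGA
MT-ND6: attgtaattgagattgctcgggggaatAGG

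Keeping wells at 2000 to 9000 detected features with less than 40% mitochondrial counts left 1146 of 1536 wells, between 271 and 293 cells a plate, with a median of 30118 to 40893 counts per cell. All 4 files number their wells alike, and no well held the same values in 2 plates. The markers of mammary epithelium summed to between 34.3 and 41.8 counts per 10000, against at most 0.590 for luminal hormone-responsive, 0.110 for immune, 0.214 for endothelial and 0.132 for fibroblast markers. Low-resolution replicate 1 was on another flow cell than the other 3 plates, as the names of the deposited files show. Per-plate values below are given in the order low-resolution replicates 1 and 2, then high-resolution replicates 1 and 2, and a mean ± SD is over the 4 plates (n = 4).

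Mitochondrial genes supplied close to 3 in 10 counts of every plate. Their share of the summed counts was 29.4%, 31.04%, 30.2% and 28.5%. Single cells ran from 10.5% to 40.6% over all plates, the highest values lying just above 40% because the filter counts spike-ins in the total. The limit itself removed 41, 50, 43 and 33 wells that had enough features, so the upper end of this range was set by the filter. Without the limit the median well held 31.1%, 32.7%, 31.3% and 29.4%.

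The mRNAs held 83.3% ± 0.536 of mitochondrial counts, the rRNAs 16.5% ± 0.549 and the tRNAs 0.268% ± 0.0258. The rRNA share was 16.7%, 16.9%, 15.7% and 16.6%, with both high-resolution plates below both low-resolution plates but 1 of them close to the low-resolution values. Counts of mRNA per count of rRNA came to 5.06 ± 0.208. The library primes on poly(A), so this is a ratio of captured transcripts. How well each class is captured was not measured, and the ratio is not the RNA balance of the mitochondria. By complex, the 7 complex I genes held 32.7% ± 0.600, the 3 complex IV genes 24.7% ± 0.759, the 2 complex V genes 16.6% ± 0.693 and MT-CYB, the only complex III gene, 9.24% ± 0.167.

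The order of single genes was led by MT-ATP6 (chrM:8527-9207), a subunit of the proton channel of ATP synthase. Its share of mitochondrial counts was 15.4%, 14.98%, 16.6% and 15.8%, above every other gene in every plate. It was followed by MT-ND4 (chrM:10760-12137) of complex I with 13.04% ± 0.709 and by the large-subunit rRNA MT-RNR2 (chrM:1671-3229) with 12.5% ± 0.812, and these 2 overlapped between plates. MT-CO1 (chrM:5904-7445), the catalytic subunit of complex IV, held 9.49% ± 0.507, MT-CYB (chrM:14747-15887) 9.24% ± 0.167 and MT-CO2 (chrM:7586-8269), which receives electrons from cytochrome c, 8.27% ± 0.275. Of these neighbours MT-CO1 and MT-CYB overlapped between plates, whereas MT-CYB exceeded MT-CO2 in all 4.

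The middle of the order was held by MT-ND1 (chrM:3307-4262) with 7.51% ± 0.493, which overlapped with MT-CO2 between plates, by MT-CO3 (chrM:9207-9990) with 6.90% ± 0.329 and by MT-ND2 (chrM:4470-5511) with 6.09% ± 0.0594. MT-RNR1 (chrM:648-1601), the small-subunit rRNA, held 3.97% ± 0.587 and overlapped with MT-ND3 (chrM:10059-10404) at 3.17% ± 0.158. MT-ND5 (chrM:12337-14148), the longest of the mRNAs, held 2.46% ± 0.192. The upstream frames of the 2 pairs that share an mRNA were far below their partners: MT-ATP8 (chrM:8366-8572) held 0.920% ± 0.0690 and MT-ND4L (chrM:10470-10766) 0.398% ± 0.0538.

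MT-ND6 (chrM:14149-14673), the only mRNA of the light strand, held 0.0393% ± 0.00387 of mitochondrial counts. Its level was 1.30, 1.12, 1.23 and 1.04 counts per 10000, and it had a UMI in 85.9%, 87.1%, 90.4% and 93.2% of cells. The exact 95% binomial interval of the lowest of these shares was 81.4% to 89.7%, which covers counting error only. No cell type without mitochondria was present to set a background for such shares. All 9 light-strand genes together supplied 0.0489% ± 0.00486 of mitochondrial counts.

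**Figure D1:**
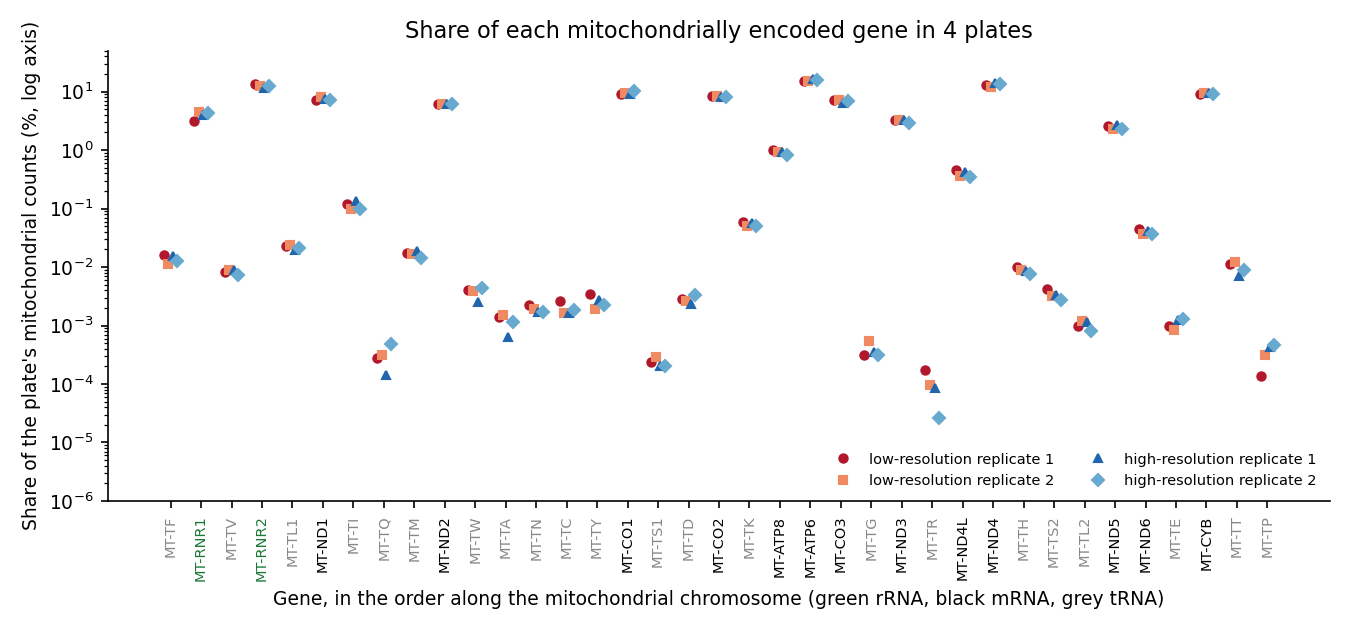
Share of each of the 37 genes in the mitochondrial counts of a plate (log axis), in chromosome order, with 1 point per plate. MT-ATP6 is highest with 14.98% to 16.6%, and MT-TI leads the tRNAs near 0.1%. Relative to their share, plates differ more than for MT-ATP6 in MT-RNR1, with 3.13% to 4.40%, and in several tRNAs.

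Per kilobase of gene the order changed. MT-ATP6 remained first with 687 counts per 10000 per kb, and MT-CO2 moved up to 360, ahead of MT-ND4 with 282 and MT-ND3 with 274. MT-RNR2 had 239 and MT-RNR1 124, while MT-ND5 at 40.5 and MT-ND4L at 40.0 lay lowest among the heavy-strand mRNAs and MT-ND6 had 2.23. Each transcript is counted once at its end, so counts are not proportional to length in this method and both scales are given. Across the 15 mRNAs and rRNAs the share and the length had a Spearman rho of 0.511, as a description across genes that share libraries.

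The tRNAs were counted very unequally. MT-TI, the isoleucine tRNA, supplied 42.1% ± 3.25 of tRNA counts and MT-TK, the lysine tRNA, 20.2% ± 0.456, followed by MT-TL1 with 8.24% ± 1.22, MT-TM with 6.25% ± 0.325 and MT-TF with 5.18% ± 0.427. MT-TI had 3.54, 3.07, 4.11 and 2.80 counts per 10000 and a UMI in 95.2% to 98.6% of cells. At the other end MT-TR had 5, 3, 3 and 1 counts in whole plates and MT-TS1 between 7 and 9.

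The 14 heavy-strand tRNAs held 0.258% ± 0.0253 of mitochondrial counts and the 8 light-strand tRNAs 0.00957% ± 0.00125. The groups overlapped gene by gene, since MT-TG and MT-TR of the heavy strand were as rare as MT-TQ and MT-TP of the light strand. The median A content was 36.4% for heavy-strand and 22.6% for light-strand tRNAs. Over all 22 tRNAs the share had a rho of 0.309 with the A content, but within the heavy strand the rho was -0.387, and with the longest run of A it was 0.0172. In the printed sequences MT-TS1 has the longest run and almost no counts. That run starts at base 2, so it says nothing about the A content at the transcript end.

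Cells differed far more in some genes than in others. After subtraction of the variance that counting alone gives, the share of MT-ND4 in the mitochondrial UMIs of a cell had a coefficient of variation (CV) of 7.32%, 7.21%, 7.89% and 7.66%, the lowest of the mRNAs and rRNAs. MT-ATP6 followed with 10.4% ± 0.477. These CVs use UMIs without the correction for repeated UMIs, and abundant genes approach saturation. MT-ATP6 and MT-ND4 had the most UMIs per cell, with means of 1410 and 1217. The part of saturation in their low CV was not tested. MT-RNR1 had the highest CV of the heavy-strand mRNAs and rRNAs, 47.8%, 55.6%, 48.7% and 53.9%, whereas its fellow rRNA MT-RNR2 had 15.99% ± 1.16. MT-ND4L had 40.3% ± 2.45, MT-ND6 55.5% ± 5.74 from a mean of only 4.55 UMIs per cell, and among the tRNAs with over 5 UMIs per cell MT-TI had 73.7% ± 11.1 and MT-TK 40.7% ± 4.05.

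**Figure D2:**
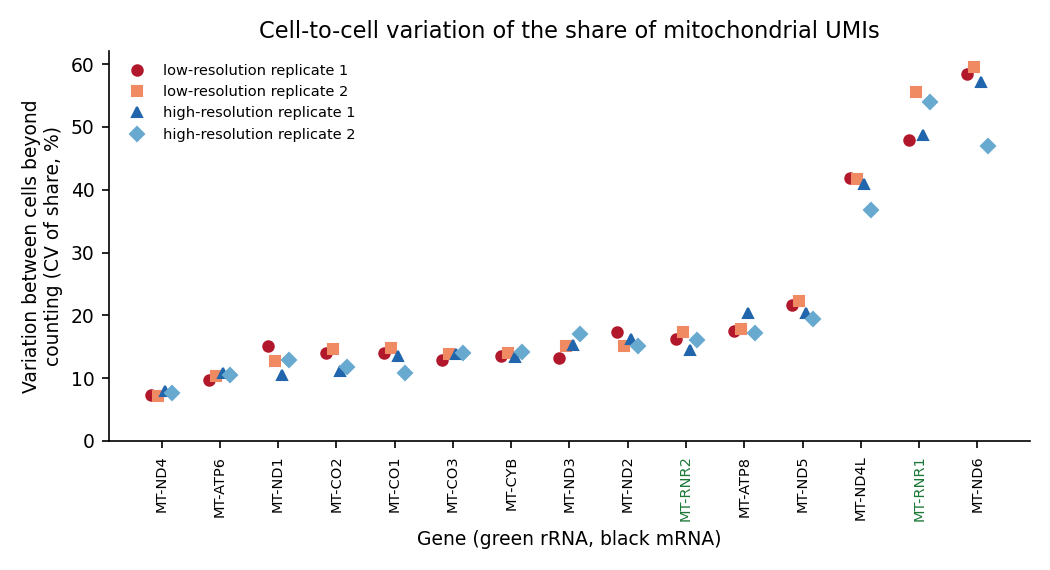
Cell-to-cell variation of each mRNA's and rRNA's share of the uncorrected mitochondrial UMIs of a cell, as the CV beyond counting, with 1 point per plate. MT-ND4 is lowest with 7.21% to 7.89% in every plate, and MT-RNR1 and MT-ND6 are highest.

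The ratio of the rRNAs set 1 plate apart. Counts of MT-RNR2 per count of MT-RNR1 were 4.35 in low-resolution replicate 1 and 2.84, 2.93 and 2.82 in the other plates. MT-RNR1 had 92.2 counts per 10000 in that plate and 120 to 136.5 in the others, and whether the flow cell has a part in this cannot be told apart from the plate. Within every plate the share of MT-RNR1 among rRNA counts rose with the depth of the cell (rho with total counts 0.347, 0.351, 0.384 and 0.486). The rRNA share of mitochondrial counts in single cells had medians of 16.2%, 15.8%, 14.6% and 15.3%, with 5% of cells under 9.69% to 11.2% and 5% above 21.9% to 24.97%.

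Most mRNAs and rRNAs of the heavy strand rose and fell together across cells. Of their 91 pairs, 84 had a positive rho of the counts per 10000 in all 4 plates, with a median of 0.45, although all genes share the library total. The closest pair was MT-CO2 and MT-ATP6 with 0.851, 0.883, 0.752 and 0.765. Pairs with MT-ND6 had a median of only 0.06, but MT-ND6 had a mean of 4.55 UMIs per cell. The part of counting noise in this value was not tested. As shares of mitochondrial counts, which removes the common rise, the rRNAs were the closest pair of all members with 0.421, 0.683, 0.555 and 0.646, while MT-RNR1 and MT-CYB ran in opposite directions with -0.466, -0.686, -0.555 and -0.562.

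The EMT score of a cell was the mesenchymal minus the epithelial score of the study's gene lists, computed by gene set variation analysis, and no mitochondrial gene is in these lists. The mitochondrial share of counts fell with the score in every plate (rho -0.415, -0.297, -0.400 and -0.474), which is the base for the comparison of single genes. The mRNA share of all counts had a mean rho of -0.378 ± 0.0611 and the rRNA share of all counts -0.166 ± 0.110. The balance within mitochondrial counts moved little: the rRNA share of mitochondrial counts had rho values of 0.128, 0.154, -0.0149 and -0.0171, above 0 in the low-resolution and just below 0 in the high-resolution plates. Per spike-in count, mitochondrial RNA had -0.275, -0.158, -0.116 and -0.115 with the score, whereas nuclear RNA had between -0.0472 and 0.0965.

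Gene by gene the relation was uneven. Among the 26 members that 20% or more of the cells showed in each plate, 3 had a rho of -0.3 or lower in all plates (background 2.41% of 7959 genes outside the lists), and none had 0.3 or higher (background 2.32%). A rho below 0 in all plates was found for 12 members (background 24.1%), 10 of them mRNAs, and above 0 only for MT-ND6 (background 34.6%). The median of the mean rho was -0.0945 over the 26 members and 0.0169 over all genes outside the lists.

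MT-CO2 followed the score most closely, with rho values of -0.588, -0.455, -0.506 and -0.452, the lowest of the 26 in each plate. Per spike-in count its mean rho was -0.299 ± 0.0944, against -0.5004 per 10000 counts. In low-resolution replicate 1 its level averaged 296 counts per 10000 in the 97 cells with the lowest scores and 198 in the 97 with the highest. The corresponding levels were 303 and 226 in low-resolution replicate 2, 283 and 212 in high-resolution replicate 1, and 281 and 208 in high-resolution replicate 2. The ratio of high- to low-score cells was 0.726 ± 0.0379, further from 1 than the 0.859 ± 0.0353 of the mitochondrial share as a whole.

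The other members past the limit were MT-ND4 with -0.449, -0.374, -0.352 and -0.406 and MT-ATP6 with -0.501, -0.357, -0.354 and -0.340. When the correction for repeated UMIs was undone, only MT-CO2 still had -0.3 or lower in every plate. The mean was then -0.293 for MT-ATP6 and -0.319 for MT-ND4. Thinning each cell to 10000 UMIs gave -0.302 and -0.327, and again only MT-CO2 met the limit. The thinned cells were drawn from uncorrected UMIs, so the part of depth alone was not tested. Per 10000 corrected counts, MT-ATP8 had a mean of -0.296, MT-ND5 -0.264, MT-ND3 -0.262 and MT-CO1 -0.251, each below 0 in all plates. Both rRNAs lay nearer to 0, with -0.192 for MT-RNR2 and -0.0753 for MT-RNR1, and the latter changed sign between plates.

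MT-ND6 had rho values of 0.106, 0.168, 0.0984 and 0.0296, slightly above 0 in every plate, but in at least 1 plate it was not above 0 when cells were thinned, when mitochondrial genes were scaled to nuclear counts, without the mitochondrial limit or given the cell cycle scores. As a share of mitochondrial counts it had 0.202, 0.225, 0.174 and 0.128. High-score cells held 1.22 ± 0.151 times the level of low-score cells.

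**Figure D3:**
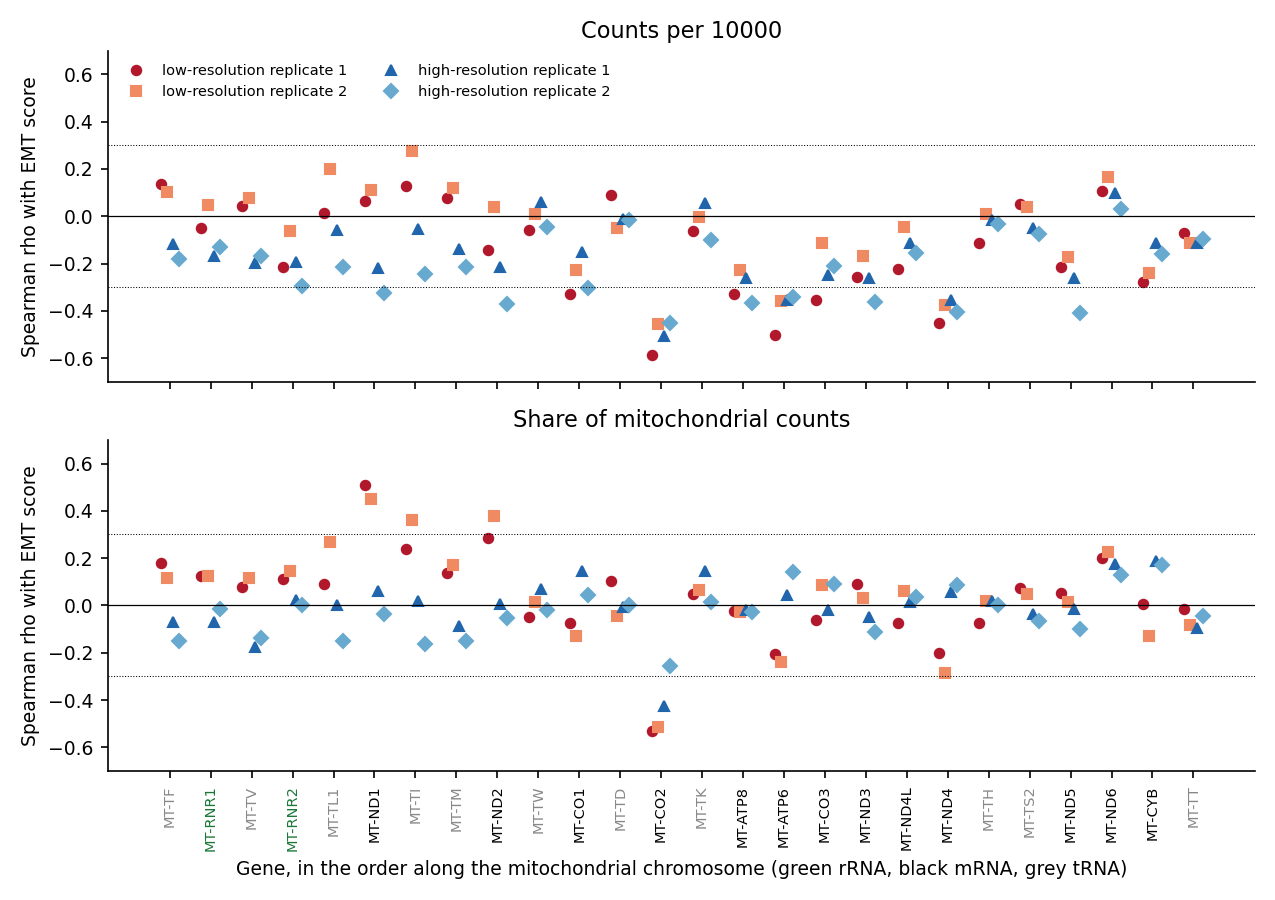
Spearman rho of each of 26 members with the EMT score across the cells of a plate, as counts per 10000 (top) and as a share of mitochondrial counts (bottom), with 1 point per plate and dotted lines at -0.3 and 0.3. MT-CO2 is the lowest gene in every plate in both panels, and MT-ND6 is above 0 in every plate in both.

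Within mitochondrial counts MT-CO2 was again the lowest of the 26 in every plate (rho -0.529, -0.512, -0.427 and -0.257). Its share fell from 9.19% in low-score to 7.41% in high-score cells of low-resolution replicate 1, and from 8.88% to 7.94% in high-resolution replicate 2. MT-ATP6 and MT-ND4, which followed the score as levels, had shares with rho values of both signs. MT-ND1, which lies upstream on the same strand, went the opposite way to MT-CO2 in the low-resolution plates, with 0.507 and 0.451, and had 0.0625 and -0.0357 in the high-resolution plates. The shares of MT-ND1 and MT-CO2 were themselves opposed across cells (-0.627, -0.556, -0.282 and -0.398).

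**Figure D4:**
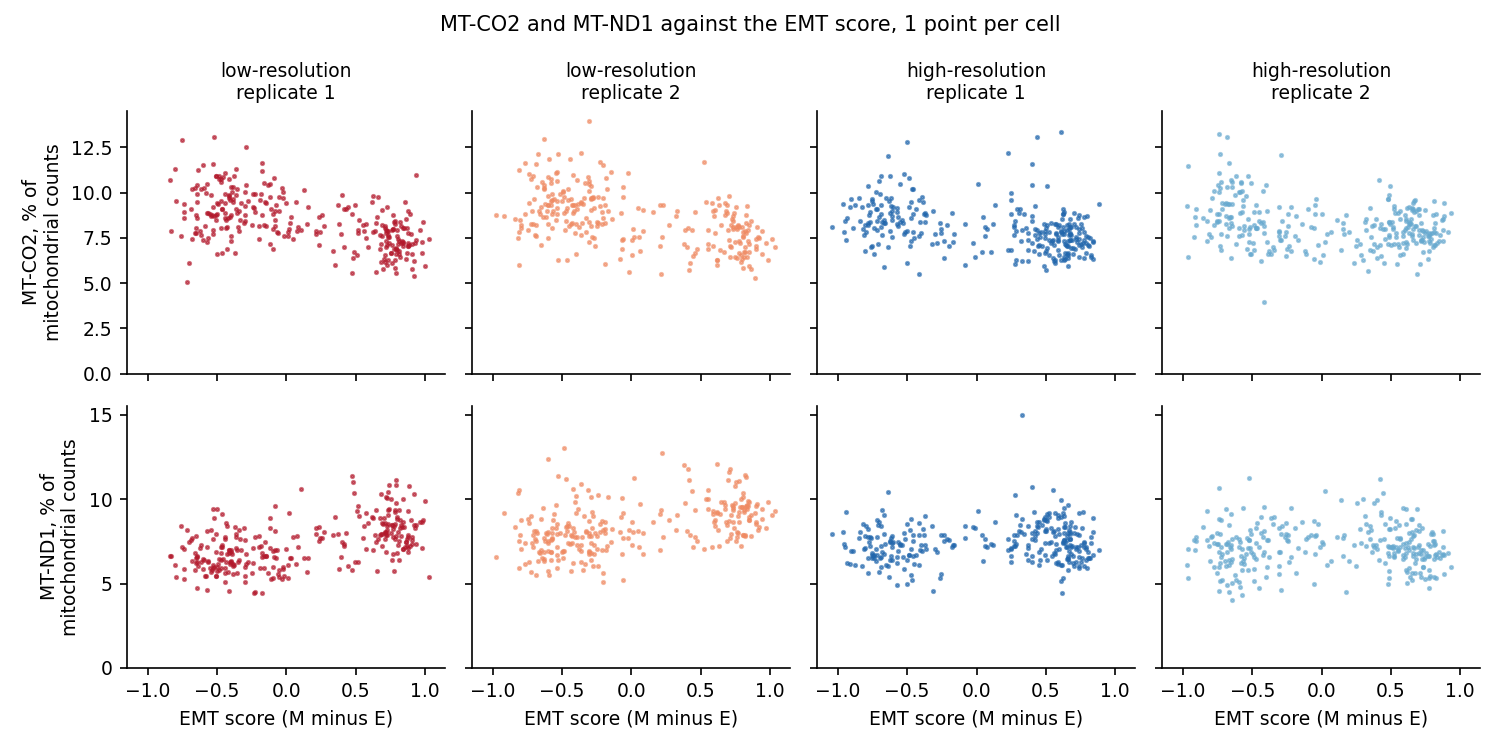
MT-CO2 (top) and MT-ND1 (bottom) as a percentage of the mitochondrial counts of a cell against its EMT score, with 1 point per cell and 1 column per plate. MT-CO2 falls with the score in all 4 plates, whereas MT-ND1 rises in the low-resolution plates and has a rho near 0 in the high-resolution plates.

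With each of the classic markers CDH1, EPCAM, VIM and FN1, MT-CO2 again had the largest mean rho of the 26 members. These markers belong to the lists behind the score, so they are no separate measure of EMT. With the adhesion protein CDH1, the mitochondrial share had rho values of 0.266, 0.178, 0.280 and 0.274, and 10 of 26 members were above 0 in all plates (background 24.7% of 8031 genes). MT-CO2 was highest with 0.429, 0.312, 0.384 and 0.283, before MT-ND4 with a mean of 0.266 and MT-ATP6 with 0.255. With EPCAM, another epithelial adhesion protein, 8 of 26 were above 0 in all plates (background 27.4%). MT-CO2 led with 0.500, 0.228, 0.343 and 0.211, and the mitochondrial share in low-resolution replicate 2 had only 0.0300, against 0.227 to 0.314 in the other plates. Without that plate 14 members were above 0.

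With VIM, the intermediate filament of mesenchymal cells, 11 of 26 members were below 0 in all plates (background 17.3%), and the mitochondrial share had -0.303, -0.167, -0.332 and -0.439. MT-CO2 had -0.406, -0.265, -0.378 and -0.430, and MT-ND6 was the only 1 of the 26 above 0 in all plates (background 33.7%), with 0.128, 0.206, 0.0886 and 0.0779. With the matrix protein FN1, 9 of 26 were below 0 in all plates (background 25.5%), all of them mRNAs. MT-CO2 had a mean of -0.369 ± 0.0934 and MT-ATP6 -0.355 ± 0.0814, while MT-CYB had -0.123 and -0.0553 in the low-resolution and 0.141 and 0.107 in the high-resolution plates.

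As a share of mitochondrial counts, MT-CO2 kept 1 sign in all plates with each of the 4 markers. Its mean rho was 0.345 with CDH1, 0.338 with EPCAM, -0.297 with VIM and -0.383 with FN1. Over the 42 epithelial and 31 mesenchymal list genes with enough cells, the MT-CO2 level was above 0 in all plates with 33 epithelial and below 0 with 27 mesenchymal genes (background 11.6% of 8006 nuclear genes above 0 and 52.5% below 0). Other members had similar counts, 36 and 27 for MT-ND4, 32 and 27 for MT-ATP6, 34 and 24 for MT-ATP8 and 34 and 18 for MT-ND5. For MT-ND6 these counts were 2 and 1, and 18 mesenchymal genes were above 0. The share over all nuclear genes was computed for MT-CO2 only, so the counts of the other members have no background beside them.

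The G2/M score of the cell cycle divided the members. The G2/M score had a rho below 0 in all plates with 14 of the 26 members (background 13.8% of 8032 genes) and above 0 with 8 (background 53.0%). Lowest was MT-CYB, with -0.461, -0.425, -0.479 and -0.531 for G2/M, before MT-CO2 with a mean of -0.403. Above 0 were MT-RNR1 (mean 0.159), MT-ND6 (0.155), MT-TI (0.190) and other tRNAs. The EMT score itself had a rho of 0.227 ± 0.0446 with G2/M, and given both cycle scores MT-CO2 kept a mean rho of -0.464 with the EMT score. Total counts had a rho above 0 with 13 members (background 70.0%), among them all 8 just counted, and below 0 with 3 (background 4.81%), so depth moved with these genes and its part was not tested.

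Nuclear genes were scaled to nuclear counts alone before they were set against the mitochondrial share. Of 8006 such genes, 23 had a rho of 0.3 or higher in all plates (0.287%) and 11 of -0.3 or lower (0.137%). Among the 5 with the highest mean were FXYD3, a regulator of the sodium pump, with 0.464 ± 0.0514, the lysosomal protease CTSD with 0.451 ± 0.0711 and the galectin LGALS3 with 0.450 ± 0.0710. The 5 lowest were the metallothionein MT2A with -0.478 ± 0.0961, the ectonucleotidase NT5E with -0.423 ± 0.109, the actin-binding PFN1 with -0.418 ± 0.0633, the receptor kinase AXL with -0.408 ± 0.108 and LGALS1 with -0.396 ± 0.0817.

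Of the nuclear-coded subunits, those of complex IV stood closest to the mitochondrial share. A rho above 0 in all plates was found for 10 of 11 complex IV subunits, against 5 of 9 for complex III, 13 of 37 for complex I and 5 of 17 for complex V (background 17.6% of nuclear genes). The medians of the mean rho were 0.239 for complex IV, 0.0648 for complex III, 0.0284 for complex I and 0.0640 for complex V, beside -0.0286 over all nuclear genes. Complex IV subunits also had the lowest median rho with the EMT score, -0.314. It was -0.143 for complex III, -0.0742 for complex I and -0.110 for complex V. The part of the score in these values was not tested. COX6A1 had 0.317, 0.338, 0.411 and 0.527 and was the only list member at 0.3 or higher in all plates. COX7C had a mean of 0.311 ± 0.143, UQCRC2 of complex III 0.249 ± 0.0950 and NDUFB5 of complex I 0.229 ± 0.0698.

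The summed nuclear complex IV subunits had the highest mean rho with MT-CO2, at 0.468, 0.500, 0.542 and 0.625 across the cells of a plate. MT-ATP6 had 0.489, 0.551, 0.454 and 0.540 with the same sum, above MT-CO2 in both low-resolution and below it in both high-resolution plates. The mean was 0.392 ± 0.0733 for MT-CO3 and only 0.199 ± 0.120 for MT-CO1, although all 3 MT-CO genes code for complex IV. The sum of the complex V subunits had 0.309 ± 0.0498 with MT-ATP6 and 0.247 ± 0.0931 with MT-CO2, and that of complex I between -0.113 for MT-CYB and 0.330 for MT-ATP6. MT-ND6 had -0.0979 ± 0.0732 with complex IV.

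**Figure D5:**
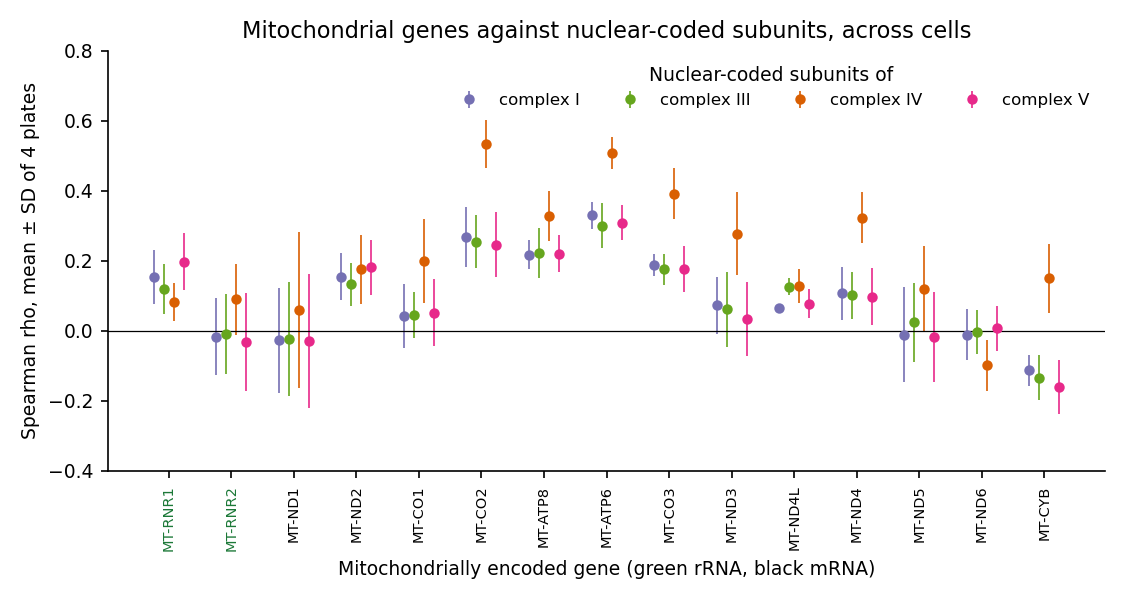
Spearman rho across cells between each mitochondrial mRNA or rRNA and the summed nuclear-coded subunits of 4 complexes, as mean ± SD of 4 plates. Complex IV subunits give the highest values for most mRNAs, with 0.534 for MT-CO2 and 0.508 for MT-ATP6. MT-ND6 has a mean of -0.0979 with complex IV and lies near 0 with the others.

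Genes that transcribe or maintain mitochondrial DNA showed no such relation. Among factors of transcription 0 of 6 were above 0 and 3 were below 0 in all plates (background 34.2% below 0), among those of replication 3 of 3 were below 0, of RNA processing 5 of 12 and of RNA stability 5 of 11. TFAM, which packages mitochondrial DNA and starts its transcription, had -0.126 ± 0.0269, and SLIRP, which stabilizes mitochondrial mRNAs, -0.150 ± 0.0514.

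The experiments were compared on counts summed per plate. Of 35 members tested with edgeR's quasi-likelihood test (Benjamini-Hochberg adjustment over 12437 genes), 1 was called (background 12.4%, or 6.18% for genes lower in high resolution), and 2 had an unadjusted p under 0.05. MT-TS1 and MT-TR had too few counts to be tested. The groups of plates did not overlap for 12 members (background 57.6%), and the median log2 fold change of high- against low-resolution plates was -0.07 over the members and -0.02 over all genes.

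The gene called was MT-TT (chrM:15888-15953), the threonine tRNA, with 0.330, 0.379, 0.213 and 0.256 counts per 10000. Both high-resolution plates lay below both low-resolution plates (log2 fold change -0.56, SE 0.154, adjusted p = 0.0335). The call was lost with DESeq2 (log2 fold change -0.56, adjusted p = 0.0524). It was also lost in edgeR without low-resolution replicate 2 (log2 fold change -0.41, adjusted p = 0.150), without high-resolution replicate 1 (-0.44, adjusted p = 0.188) and with library sizes from spike-ins (-0.00805, adjusted p = 0.970). MT-TA, the alanine tRNA, was the other member with an unadjusted p under 0.05, at 0.0414, 0.0466, 0.0192 and 0.0332 counts per 10000 (log2 fold change -0.69, SE 0.318, edgeR adjusted p = 0.175).

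No mRNA or rRNA passed the test. Their log2 fold changes lay between -0.13 for MT-RNR2 and 0.12 for MT-RNR1, with SEs of 0.109 to 0.166 and a lowest adjusted p of 0.468 (edgeR), so changes of this size were not detectable with 2 plates a group. MT-ATP6 had 454, 465, 502 and 452 counts per 10000 and MT-CO2 250, 264, 240 and 231. MT-RNR1 depended on single plates: it was called without low-resolution replicate 2 (log2 fold change 0.49, edgeR adjusted p = 0.0481) and had -0.16 without low-resolution replicate 1. With library sizes taken from spike-ins, 24 members were higher in the high-resolution plates, but the median of all genes moved by a like amount, to 0.53 against 0.49 for the members. The plates held 60.3, 57.4, 92.4 and 87.1 nuclear and 25.2, 25.8, 39.9 and 34.8 mitochondrial counts per spike-in count, and spike-in input and RNA per cell cannot be told apart here.

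Among nuclear-coded genes of mitochondrial function, 1 of 12 RNA stability factors was called higher in the high-resolution plates, SLIRP (log2 fold change 0.43, edgeR adjusted p = 0.0252), and 1 of 11 complex IV subunits lower, COX5B, which was picked for naming after its values were seen, against 12.4% of all genes called. None of 37 complex I, 9 complex III and 17 complex V subunits was called, nor any factor of transcription, replication or processing.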

How the data were processed

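SORT-seq libraries of 4 plates were analysed. Per the labels, reads were processed with STAR 2.7.3a and Seurat 4 on hg38; the annotation is not given in the sources used here. The authors deposited an expected count for each gene and well: the number n of distinct UMIs out of 4096, corrected as ln(1 - n/4096)/ln(1 - 1/4096). For 100% of values the correction could be undone to within 1e-09. Uncorrected UMIs were 82.8% to 86.2% of mitochondrial but 99.3% to 99.4% of nuclear counts, and the most UMIs of a gene in a cell were 3249, so abundant mitochondrial genes approach saturation.

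The feature limits were 2000 and 9000, and the limit on mitochondrial counts, spike-ins included in the total, was 40%. Spike-ins were left out of library sizes, and counts were scaled to 10000 per cell. Plates totalled 11709628 to 14992348 counts. No doublet caller was run; the upper feature limit stood in its place. EMT scores (M minus E) used an implementation of GSVA with a Gaussian kernel, 1 fit per experiment, over 64 E and 97 or 100 M genes. Cell cycle scores used the lists of Seurat 5.3.0. Spearman rho was computed across the cells of a plate and is given without p, since cells of a plate share a library. Plate sums, rounded to whole numbers, were tested with edgeR 4.0.16 (TMM, filterByExpr, quasi-likelihood), with DESeq2 1.42.0 as an alternative (R 4.3.3). The SE of an edgeR fold change is its absolute value over the square root of F. The study describes the plates of an experiment as biological replicates; p-values measure the spread between plates. The limits on wells left fewer cells than the study counts as analysed, and the reason was not tested. For counts at equal depth, cells were thinned to 10000 whole UMIs, which left out 2 to 7 cells a plate.

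All members were described. Outside them, up to 3 genes per list with the largest mean size of rho with the mitochondrial share were eligible to be named, and the 5 nuclear genes with the highest and lowest mean rho. A further gene meets this rule and is left out. Members and lists were chosen with earlier results of these data known. Scripts were tested on simulated data. Alternatives covered normalization, filters, scaling, depth, the score, the cell cycle, limits on rho and leaving out each plate. Protein sequences and the table of well barcodes were not used here.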

Additional observations from a re-analysis of the deposited data

Results flagged for a closer look

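The relation of 6 members with the EMT score had opposite signs in the experiments, at a size of at least 0.05 in each plate. The share of all genes that meet this rule was not computed, so the count of 6 has no background. Whether the experiments differ was not tested, and 26 members were looked at on each of 2 scales. As counts per 10000, the rho of MT-ND1 averaged 0.0883 in the low-resolution and -0.271 in the high-resolution plates, a difference of 0.360. MT-TI averaged 0.202 and -0.149 (difference 0.351), MT-TM 0.0971 and -0.175 (difference 0.272) and MT-TF 0.121 and -0.150 (difference 0.271). With cells thinned to 10000 UMIs the means of MT-ND1 were 0.0590 and -0.273 and those of MT-TI 0.196 and -0.109, while MT-TM was at 0.0541 and -0.0470.

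As shares of mitochondrial counts, the difference between the low- and the high-resolution mean was 0.274 for MT-TM, 0.259 for MT-TF and 0.252 for MT-TV. MT-ND4 differed the other way: its share had a mean rho of -0.244 in the low-resolution and 0.0702 in the high-resolution plates, a difference of -0.314.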

How the results depend on the processing

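Under the alternatives, 72 values of the main results stayed within 1.5 times (counts) or kept their sign and stayed within 1 SD (means), and 15 did not. For counts neither the direction nor the genes behind the count were compared, so a count could stay at 1 with another gene behind it. The count of members called between the experiments was 24 with spike-in library sizes (6608 genes called in all, 6471 of them higher in high resolution, against 1547 and 778), 0 with DESeq2 (1 member at an unadjusted p under 0.05, 1070 genes called) and 0 to 1 with a plate left out (982 to 1172 genes called). The median log2 fold change of the members became 0.49 with spike-in library sizes and ranged from -0.18 to 0.019 (without high-resolution replicate 2) with a plate left out, and that of MT-RNR1 from -0.16 to 0.49. The replicate block gave 1 member called and 2023 genes in all; the numbers share no deviation between experiments (r = -0.0241 over 12437 genes), so they were not taken as pairs.

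The mitochondrial share of counts, 29.8% as a mean of plates, was 31.7% without its limit and 26.5% in whole UMIs. Its mean rho with the EMT score, -0.396, was -0.166 per spike-in count and -0.430 to -0.371 with a plate left out. The 3 members following the score became 1 in whole UMIs, 1 at a limit of 0.4 and 0 per spike-in count. They also became 1 at 10000 UMIs, a setting that thins whole UMIs. The spike-in and whole-UMI settings and the next were chosen after seeing the data. As shares of mitochondrial counts, 3 members were above 0 in all plates with CDH1 and 5 with EPCAM, and 2 were below 0 with VIM and 3 with FN1. About as many went the other way: 3 were below 0 with CDH1 and 4 with EPCAM, and 3 were above 0 with VIM and 5 with FN1. No share of all genes was computed for this scale. As counts per 10000 with a plate left out, the count above 0 with EPCAM was 8 to 14. The cause of these shifts was not tested. With 2 plates a group, differences well above the SEs given can also be missed. MT-TA had a log2 fold change of -0.69 at an SE of 0.318 and was not called (edgeR adjusted p = 0.175). Rare tRNAs rest on few counts.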

Other observations

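Nuclear copies of MT-RNR2 were counted as rows of their own. Of 10 MTRNR2L rows, which are near-identical to MT-RNR2, MTRNR2L1 on chromosome 17 carried nearly all counts, at 0.414% to 0.572% of those of MT-RNR2, and the other 9 had between 1 and 37 counts over the 4 plates. MTRNR2L1 was among the 5 nuclear genes with the highest rho with the mitochondrial share (0.462 ± 0.0321) and had a rho of 0.324 to 0.596 with MT-RNR2, so its counts are uncertain where reads of the 2 could be split.

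The wells that the mitochondrial limit removed were not a uniform excess of all members. Their median mitochondrial share was 55.1%, 45.5%, 46.2% and 43.8%. MT-CO2 held a median of 8.88%, 9.54%, 9.07% and 9.29% of mitochondrial counts in them, against 8.24%, 8.47%, 7.89% and 8.06% in the cells kept, and MT-ND1 6.49%, 7.14%, 6.44% and 6.64% against 7.21%, 8.15%, 7.36% and 7.16%. The tRNA share was lower in the removed wells of every plate, with medians of 0.158% to 0.210% against 0.215% to 0.255%.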
